A study of Homo sapiens with 12 samples.

Results

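The comparison described here is that of 786-O cells given everolimus together with SGI-1027 (COMB) against 786-O cells given everolimus alone (EVER), and it asks what the DNA methyltransferase inhibitor changes in cells in which mTOR is already inhibited. It rests on 6 of the 12 RNA-seq libraries of the study, 3 in each group, and on the 12841 of 17085 genes with enough counts to be tested. The cells, an established human renal cancer line labelled wild type, were treated for 24 h with DMSO as the vehicle, 5 µM everolimus (EVER), 1.5 µM SGI-1027 (SGI) or both drugs (COMB). The characteristics of the libraries give 5 µM for every everolimus library, whereas the treatment text of the records gives 10 µM for everolimus alone. If the latter were true, COMB and EVER would differ in everolimus dose as well as in SGI-1027, and the counts cannot tell these apart. The records do not say whether the replicates were grown as separate cultures, so p-values measure the spread between these libraries, which may be technical. At these doses the study reports release of lactate dehydrogenase, a sign of membrane damage, from cells given both drugs but not either drug alone. That release came earlier than the 24 h at which RNA was taken. A response of living cells and a share of dying or surviving cells in COMB cannot be told apart by the counts.

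Everolimus binds the immunophilin FKBP12 and inhibits mTOR complex 1, the kinase complex that couples nutrients and growth factors to protein synthesis, ribosome production and lipid synthesis and that holds autophagy and lysosome production in check. SGI-1027 is a quinoline compound that inhibits the DNA methyltransferases DNMT1, DNMT3A and DNMT3B, the enzymes that write and maintain CpG methylation. Inhibitors of this enzyme class are known in other settings for an interferon response, in which the sensors RIG-I and MDA5 recognise double-stranded RNA and factors such as STAT2 and IRF9 switch on genes with an interferon-stimulated response element (ISRE).

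The 6 libraries held 37235680 to 40672186 counts. The first principal component of the 6 libraries carried 64.7% of the variance of log2 CPM (counts scaled to library size) and placed the 3 EVER libraries apart from the 3 COMB libraries. The second component carried 9.95% and set COMB replicate 3 at -16.9 against 11.9 and 7.13 for the other COMB libraries. Chi-square values per gene between replicates were 3.37 to 3.59 in EVER and 3.42 to 5.54 in COMB, against 3.05 to 16.5 in SGI and 3.62 to 13.3 in DMSO, where SGI replicate 3 and DMSO replicate 1 stood apart. Of 20 markers of a renal carcinoma line 18 had enough counts to be tested, among them PAX8 and the keratins KRT8 and KRT18. The markers LRP2 and CDH1 had too few, with 0 to 1 and 0 to 7 counts in the 6 libraries. Of 20 genes listed as markers of other cell types (blood, endothelial, epithelial, liver, lung and nerve cells) 3 had enough counts to be tested. These were ITGAM (-0.32), PECAM1 (-1.13) and EPCAM (-0.42), of which none passed the test, although EPCAM was called lower in both fits on FPKM. EPCAM marks epithelial cells, and a renal carcinoma line is epithelial too, so EPCAM cannot tell the line from other cells. Those 3 summed to 1.88 to 2.05 CPM in EVER and 1.24 to 1.75 CPM in COMB, and the T cell gene CD3E and the endothelial gene CLDN5 had no count in any of the 6 libraries.

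Adding SGI-1027 to everolimus raised a broad interferon programme and genes of the lysosome, the amino acid stress response and cholesterol synthesis, and lowered genes of mitosis and tubulins. The antiviral GTPase MX2 rose 13.97-fold and the 2-5A synthetase OAS2 12.5-fold, whereas the vasoconstrictor peptide EDN2 fell to a level 9.999-fold below that under everolimus alone. Most changes were small: the median size of a called change was 0.31 on the log2 scale.

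By the quasi-likelihood test of edgeR, adjusted after Benjamini and Hochberg over all tested genes, 2579 genes were higher (20.1%) and 2464 lower (19.2%) in COMB than in EVER at an adjusted p below 0.05. These percentages are the background for every count of list members below, and "rose" and "fell" are used of genes that passed this test. By the study's cut-off for differentially expressed genes (DEGs), an unadjusted p below 0.05 with a log2 fold change of 1 or more in either direction, 313 genes were higher (2.44%) and 188 lower (1.46%). The middle of the distribution did not move: the median log2 fold change was 0.00, with quartiles of -0.15 and 0.17 and 5% and 95% points of -0.53 and 0.70. The 3 COMB libraries lay wholly above the 3 EVER libraries for 3461 genes (27.0%) and wholly below for 3496 (27.2%). Since these are levels in bulk RNA relative to all RNA, a change of the level per cell and a change of the share of cells that express a gene cannot be told apart.

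**Figure D1:**
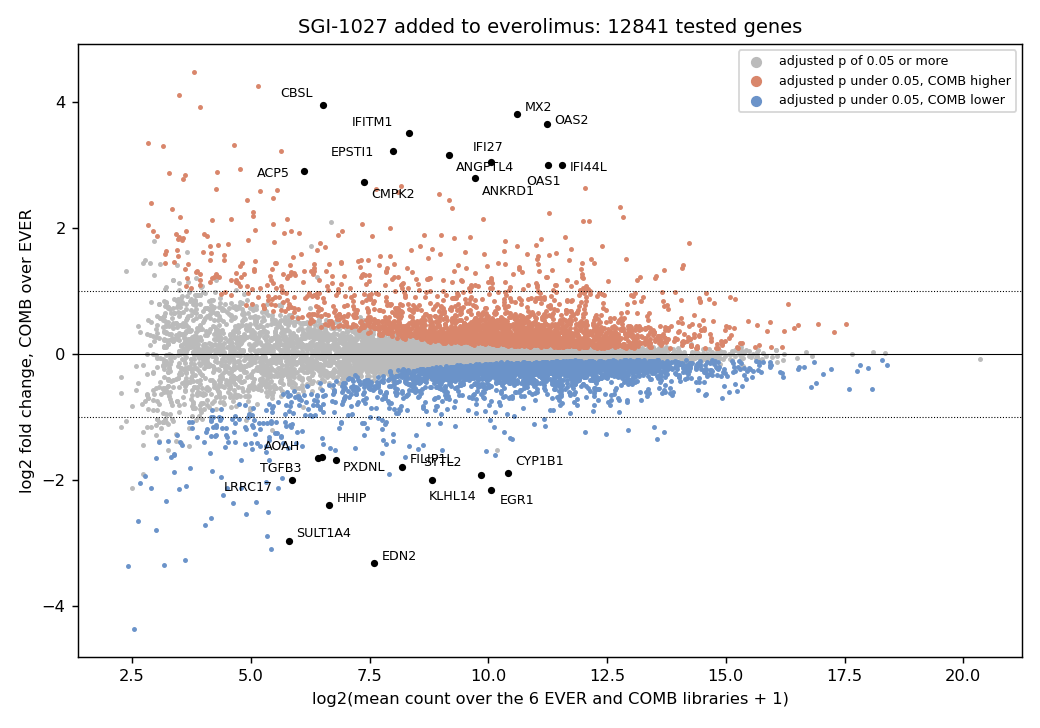
Log2 fold change of COMB over EVER (vertical axis) against the log2 mean count over the 6 libraries (horizontal axis) for the 12841 tested genes, coloured by adjusted p below 0.05. The 12 highest and 12 lowest genes that average 50 counts or more are labelled: antiviral genes such as MX2 (3.80) and OAS2 (3.65) lie at the top and EDN2 (-3.32) at the bottom, and dotted lines mark a log2 fold change of 1 and -1.

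Interferon-stimulated genes had the highest median change of the 33 lists. Of 68 tested members 65 rose and 1 fell, 52 passed the DEG cut-off upward, and the median log2 fold change was 1.44 against 0.00 over all tested genes. Their summed level was 4854 to 4991 CPM in the EVER libraries and 9816 to 10132 CPM in the COMB libraries. The COMB libraries lay wholly above the EVER libraries for 65 members and wholly below for 1, against the 27.0% and 27.2% of all genes.

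Among the effectors, ISG15, a ubiquitin-like protein that is joined to other proteins, was at 64.4, 55.7 and 58.8 CPM in the 3 EVER libraries and 299, 303 and 300.0 CPM in the 3 COMB libraries. No library of either group overlapped the other, and the log2 fold change was 2.33 ± 0.06 (SE, n = 3 against 3 in this and the following fits; edgeR adjusted p = 2.6e-15). IFIT3, which belongs to a family that binds viral RNA, went from 61.99, 64.6 and 67.6 CPM to 210.3, 216 and 210.1 CPM and was thus 3.28-fold higher. For IFI44L, a gene of little known function that is a common marker of the response, the values were 17.9, 16.8 and 17.3 CPM under everolimus and 137, 138 and 138 CPM with SGI-1027 added. For each of these genes the lowest COMB library was above the highest EVER library. Genes named for a small p or for separate groups, here and below, were largely bound to show this. Such separation therefore adds no support to their change.

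The synthetases OAS1 and OAS2 make the second messenger that activates RNase L. OAS1 read 14.1, 14.3 and 13.8 CPM in EVER and 109, 114 and 115 CPM in COMB, a log2 fold change of 2.998 ± 0.08. OAS2 read 9.38, 8.28 and 9.93 CPM and 104, 121 and 119.8 CPM, a log2 fold change of 3.65 ± 0.11. MX2, which restricts viruses at the nucleus, was at 5.11, 5.28 and 5.8 CPM before and 73.1, 76.05 and 77.2 CPM after the addition (log2 fold change 3.80 ± 0.13). When genes averaging under 50 counts over the 6 libraries were set aside, all 3 were within the 12 highest of the comparison, together with the membrane protein IFITM1 (3.51 ± 0.27), EPSTI1 (3.22 ± 0.19), the mitochondrial protein IFI27 (3.05 ± 0.17) and the nucleotide kinase CMPK2 (2.73 ± 0.17).

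A few members of the list behaved otherwise. They were chosen after their values were seen, as were all list members given below by a log2 fold change without an error. GBP2, a guanylate-binding GTPase best known as a target of type II interferon, fell from 7.86, 6.62 and 8.26 CPM to 3.93, 3.56 and 3.52 CPM. Its relative GBP1 was flat at a log2 fold change of -0.04 that did not pass the test, and GBP3, GBP4 and GBP5 rose by 0.22, 0.37 and 0.56 on the log2 scale. The transcription factor genes STAT2 and IRF9 rose by 1.44 and 1.09. MX1, the close relative of MX2, read 1.97, 2.78 and 2.38 CPM and 3.65, 3.66 and 3.26 CPM, a log2 fold change of 0.56 ± 0.16 against 3.80 for MX2.

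Sensors of nucleic acids and the signalling chain below them were mixed, with 14 of 31 tested members higher and 7 lower and a median log2 fold change of 0.16. The number lower was 4 without EVER replicate 2, COMB replicate 2 or COMB replicate 3, and without the last of these the median was 0.09. DDX58, which encodes RIG-I, read 55.3, 52.8 and 59.8 CPM in EVER and 154, 156 and 146 CPM in COMB, and IFIH1, which encodes MDA5, read 24.97, 24.8 and 25.01 CPM and 87.9, 89.9 and 86.8 CPM. STAT2 (1.44 ± 0.05) and USP18, the protease that removes ISG15 and damps receptor signalling (2.32 ± 0.09), rose as well. The adaptor MAVS (0.04), the kinase TBK1 (0.06) and the factor IRF3 (0.03) gave log2 fold changes that did not pass the test, and the receptor chains IFNAR1 (-0.22) and IFNAR2 (-0.13) fell. Other than IFNE, the interferon genes of this list were barely read. In these 6 libraries IFNB1 had 0 to 4 counts and IFNL1, IFNL2, IFNL3 and IFNK 0 or 1 count per library. IFNE, which had enough counts to be tested, fell with a log2 fold change of -0.97. Interferon genes outside the list were not examined.

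Genes of MHC class I antigen presentation rose in 16 of 20 tested members, with 1 lower and a median log2 fold change of 0.33. HLA-F, a non-classical class I gene, read 10.97, 9.92 and 11.1 CPM in EVER and 29.2, 26.6 and 26.8 CPM in COMB. The light chain gene B2M read 1366, 1314 and 1296 CPM and 1868, 1922 and 1869 CPM, and the peptide transporter gene TAP1 98.6, 101 and 108 CPM and 170.4, 177 and 188 CPM, so that neither pair of groups overlapped. NLRC5, the transactivator of class I genes, rose 2.08-fold, and the classical genes HLA-B and HLA-C rose by 0.45 and 0.30 on the log2 scale. The member that fell was the chaperone CALR (-0.13).

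Promoter sequences of RefSeq (assembly GRCh38.p14) were matched by symbol for 10378 of the 12841 tested genes, and the 250 bases before each start were read on both strands. The pattern of GAAA, any 2 bases and GAAA again, which covers the core of the ISRE, occurred in 2.56% of these promoters. It was present in 27 of the 51 interferon-stimulated genes with an entry, but 17 of the 68 had none, so that fewer than 80% were covered and the comparison of the list with all genes is void. For MHC class I genes, of which 16 of 20 had an entry, 7 held the pattern (43.8%), among them TAP1, HLA-F and B2M. A match says that these letters are there, not that a factor binds. The 3 members of the interferon list with the smallest p whose matches fit into 120 bases are shown as stretches of 120 bases, 5′ to 3′ in the direction of the gene, with the matches in capitals (overlapping matches run together, and TTTC at the left marks a match on the opposite strand). They lie at chr1:1013332-1013451 (+ strand) for ISG15, chr1:78620274-78620393 (+ strand) for IFI44L and chr10:89327803-89327922 (+ strand) for IFIT3.
ISG15: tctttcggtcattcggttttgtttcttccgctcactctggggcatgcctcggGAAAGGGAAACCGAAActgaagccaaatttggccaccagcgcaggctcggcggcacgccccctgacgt
IFI44L: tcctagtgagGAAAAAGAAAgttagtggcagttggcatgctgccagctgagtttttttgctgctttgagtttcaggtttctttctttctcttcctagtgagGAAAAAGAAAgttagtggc
IFIT3: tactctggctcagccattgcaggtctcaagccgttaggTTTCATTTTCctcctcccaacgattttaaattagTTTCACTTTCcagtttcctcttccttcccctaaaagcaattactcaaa
Each of the 3 stretches holds 2 matches. In ISG15, whose matches overlap, the nearer one begins 107 bases before the start, in IFI44L 73 bases and in IFIT3 122 bases.

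**Figure D2:**
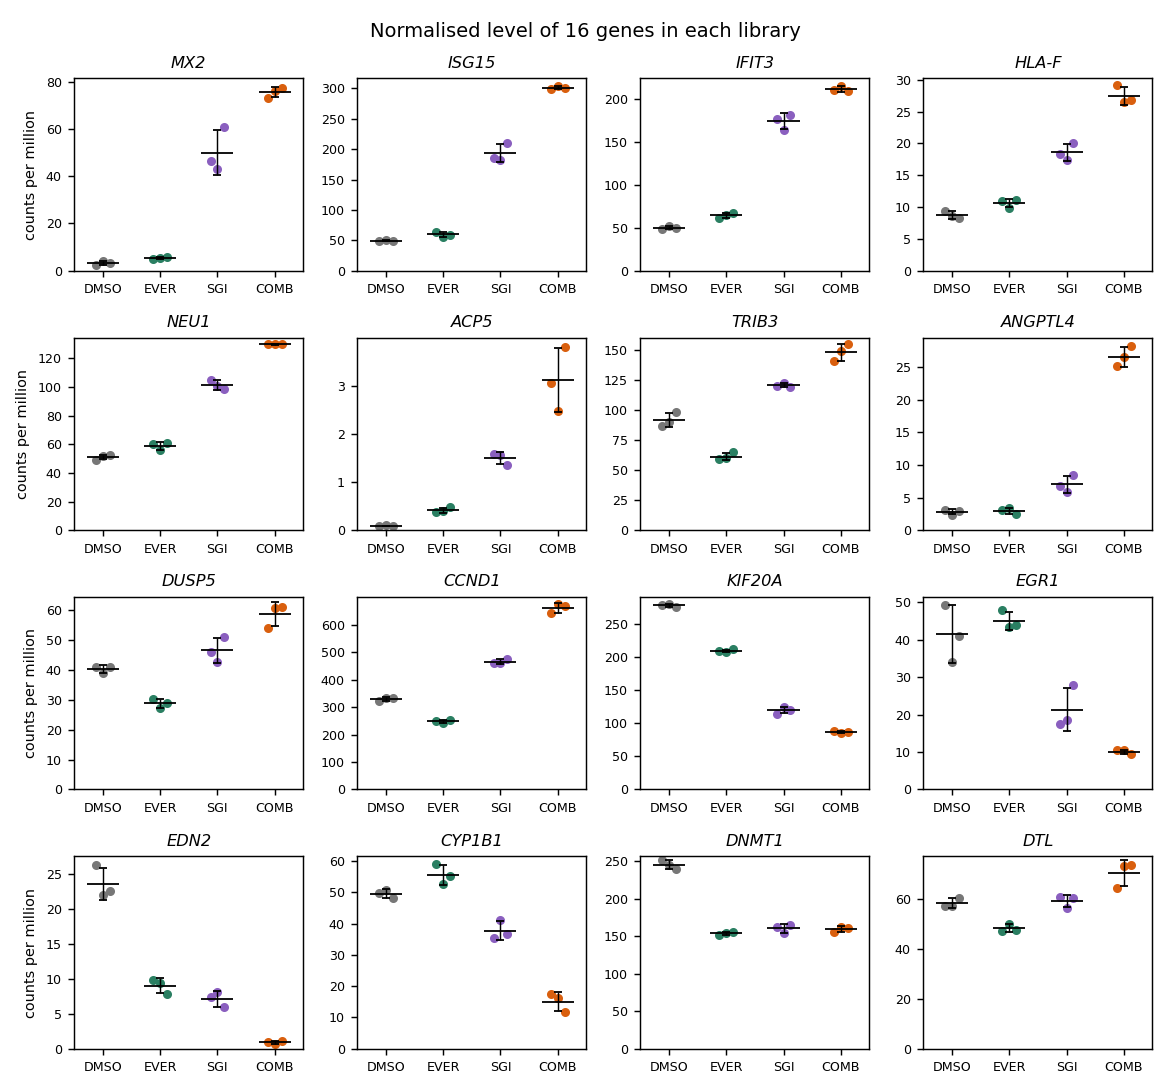
Normalised level in CPM (vertical axes, from 0) of 16 genes in each of the 12 libraries, in the order DMSO, EVER, SGI and COMB. Points are libraries, horizontal bars are means and error bars are SDs (n = 3). MX2, ISG15 and IFIT3 are low in DMSO and EVER and high in both groups given SGI-1027, KIF20A and EDN2 are lowest in COMB, and DNMT1 sits at about the same level in EVER, SGI and COMB.

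Of the enzymes that SGI-1027 inhibits, DNMT1 and DNMT3A did not pass the test at the RNA level under everolimus, and DNMT3B rose 1.20-fold. DNMT1, which copies methylation at replication, read 151, 155 and 156 CPM in EVER and 156, 162 and 162 CPM in COMB (log2 fold change 0.06 ± 0.04, edgeR adjusted p = 0.27). Its recruiting partner UHRF1 (0.03 ± 0.04, adjusted p = 0.55) and the de novo enzyme DNMT3A (-0.05 ± 0.08, adjusted p = 0.68) did not pass the test either, and for each of them the groups overlapped. The other de novo enzyme, DNMT3B, rose from 38.9, 40.3 and 41.6 CPM to 47.5, 47.9 and 49.97 CPM. Without everolimus the picture differed: DNMT1 read 251, 246 and 239 CPM in DMSO and 163, 154 and 166 CPM in SGI. The EVER libraries were thus below the DMSO libraries, as were the SGI libraries, and the test of the difference between both effects of SGI-1027 on DNMT1 gave 0.66 on the log2 scale (adjusted p = 2.9e-08).

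Over the 22 tested genes of the methylation machinery, 6 rose and 4 fell, with a median log2 fold change of 0.05. The dioxygenase TET1 fell by 0.83 on the log2 scale, and MBD3, a subunit of the NuRD complex, read 140.2, 136 and 139 CPM in EVER and 114, 111 and 109 CPM in COMB. UHRF2 (0.31), ZBTB38, a reader of methylated DNA (0.28), and GADD45A, which has been linked to demethylation (0.31), rose. Cancer-testis and germline genes, a class that is silenced by methylation in most somatic cells, were largely unread: 12 of 45 were tested, of which PRAME rose (0.25 ± 0.06) and SPA17 (-0.42 ± 0.10) and MAGEA3 (-0.18 ± 0.06) fell. The call of MAGEA3 was lost when EVER replicate 3, COMB replicate 1 or COMB replicate 2 was left out, and without EVER replicate 2 the number higher was 2. Of the untested members, SSX2 and XAGE2 had no count and MAGEA1 0 to 6 counts in the 6 libraries.

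Of the mTOR complex itself, MTOR fell from 180.5, 187 and 187 CPM to 162, 164 and 169 CPM, a log2 fold change of -0.16 ± 0.04. RPTOR, the scaffold of complex 1, gave 0.13 ± 0.06 (adjusted p = 0.088), which passed the test when EVER and COMB were fitted alone. FKBP1A, which encodes the protein that everolimus binds, gave 0.07 ± 0.04 (adjusted p = 0.16). In the list of mTOR, TSC and FOXO feedback genes 9 of 41 rose and 9 fell. The insulin receptor substrates IRS1 (0.49 ± 0.05) and IRS2 (0.42 ± 0.04), the adaptor GRB10 (0.55 ± 0.05) and the factor FOXO1 (0.77 ± 0.10) rose, and RICTOR, the scaffold of complex 2, rose by 0.32.

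Genes of the lysosome rose broadly but by less than interferon genes. Of 51 tested lysosomal hydrolases 32 rose and 3 fell (median log2 fold change 0.25), and of 49 genes of the lysosomal membrane and the proton pump 30 rose and 5 fell (median 0.25). The summed level of the hydrolases was 6614 to 6844 CPM in the EVER libraries and 9124 to 9396 CPM in the COMB libraries.

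The sialidase NEU1 read 59.99, 55.8 and 60.7 CPM in EVER and 129.9, 129.8 and 130.4 CPM in COMB, a log2 fold change of 1.14 ± 0.04. Cathepsin D, an aspartic protease that is among the most abundant lysosomal enzymes, is encoded by CTSD, which read 1592, 1477 and 1512 CPM and 2656, 2572 and 2738 CPM. TPP1, a peptidase, read 92.3, 97.4 and 92.2 CPM and 176, 188 and 184 CPM. None of these genes showed overlap between the groups. ACP5, the tartrate-resistant acid phosphatase, was the hydrolase with the largest change, from 0.378, 0.391 and 0.47 CPM to 3.05, 2.48 and 3.81 CPM, although it was a weakly expressed gene. The hydrolases that fell were CTSC (-0.32), HYAL2 (-0.24) and HGSNAT (-0.18).

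At the lysosomal membrane, NPC1, which exports cholesterol, read 184, 176 and 180.4 CPM in EVER and 280.2, 288 and 286 CPM in COMB. The cystine exporter CTNS read 11.7, 11.4 and 11.8 CPM and 21.9, 22.3 and 22.8 CPM, and the tetraspanin CD63 446, 418 and 439.9 CPM and 612, 599 and 605 CPM. LAMP1, a major membrane glycoprotein, rose by 0.28 ± 0.03 on the log2 scale, while its relative LAMP2 gave -0.07 ± 0.04 and did not pass the test. LAPTM5, a membrane protein best known from blood cells, fell from 15.9, 18.3 and 19.1 CPM to 8.13, 9.26 and 7.6 CPM. Of the proton pump, the subunit genes ATP6V0A1 (0.43), ATP6V1C1 (0.42) and ATP6V1H (0.41) rose, ATP6V1A (-0.26) fell, and ATP6V0C (0.03) did not pass the test. Without COMB replicate 2 the members of this list that fell numbered 3.

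The regulators that promote lysosome genes did not rise themselves. TFEB gave a log2 fold change of -0.23 ± 0.08 (adjusted p = 0.034), a call that was lost without EVER replicate 3, COMB replicate 2 or COMB replicate 3, and its relatives TFE3 (-0.25) and MITF (-0.79) fell. The Rag GTPase genes RRAGC, at 37.7, 34.98 and 38.4 CPM in EVER and 65.6, 70.3 and 69.1 CPM in COMB, and RRAGD (1.13) rose, as did FLCN, the partner of FNIP1 and FNIP2 in the folliculin complex, at 33.9, 33.1 and 33.1 CPM and 60.7, 59.4 and 62.8 CPM. The autophagy receptor SQSTM1, which encodes p62, read 636, 619 and 619 CPM and 1152, 1173 and 1207 CPM. GABARAPL1, an ATG8 family member, moved the other way, from 85.5, 84.9 and 79.1 CPM to 53.8, 50.7 and 49.9 CPM. Over the list of autophagy and MiT/TFE genes 14 of 44 rose and 11 fell, of which the latter count was 7 without EVER replicate 3 or COMB replicate 3.

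The E-box pattern TCACGTGA, a strict form of the CLEAR element through which TFEB acts, occurred in 1.69% of all promoters searched. Among lysosomal membrane genes 5 of 39 with an entry held it and among hydrolases 5 of 34, but fewer than 80% of either list had an entry, so that the comparison with all genes is void. Members whose matches fit into 120 bases are shown as above, in order of p, 2 from each list, at chr20:45891215-45891334 (+ strand) for CTSA, chr17:80101461-80101580 (+ strand) for GAA, chr13:113297119-113297238 (+ strand) for LAMP1 and chr19:7522504-7522623 (+ strand) for MCOLN1.
CTSA: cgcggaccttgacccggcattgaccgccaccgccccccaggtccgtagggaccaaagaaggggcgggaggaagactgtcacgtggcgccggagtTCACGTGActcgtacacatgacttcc
GAA: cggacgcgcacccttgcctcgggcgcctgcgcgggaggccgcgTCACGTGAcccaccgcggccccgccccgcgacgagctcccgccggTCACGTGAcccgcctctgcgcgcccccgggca
LAMP1: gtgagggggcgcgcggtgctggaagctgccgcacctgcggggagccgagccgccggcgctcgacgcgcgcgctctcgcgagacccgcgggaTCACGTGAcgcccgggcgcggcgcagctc
MCOLN1: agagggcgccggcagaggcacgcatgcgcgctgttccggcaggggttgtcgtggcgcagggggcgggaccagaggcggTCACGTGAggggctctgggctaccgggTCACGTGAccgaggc
CTSA encodes a protective carboxypeptidase (log2 fold change 0.61), GAA the acid glucosidase (0.45) and MCOLN1 a lysosomal calcium channel (0.60), and all of them rose. In LAMP1 the match begins 29 bases before the start.

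Endosome and macropinocytosis genes, which the study follows because SGI-1027-treated cells form vacuoles, rose in 19 of 43 members and fell in 6, with a median log2 fold change of 0.05. Without COMB replicate 2 or COMB replicate 3 the number that fell was 3. VAC14, the scaffold of the PIKfyve lipid kinase complex, read 70.8, 75.3 and 77.6 CPM in EVER and 119, 118 and 125 CPM in COMB, and PLEKHM1, an adaptor for fusion of late endosomes with lysosomes, 24.4, 25.7 and 28.4 CPM and 44.4, 48.3 and 48.1 CPM. The late endosome GTPase RAB7A rose by 0.43, whereas RAB7B fell from 6.05, 5.25 and 5.33 CPM to 2.66, 1.61 and 1.63 CPM. RAC1 (-0.02), ARF6 (0.02) and PIKFYVE (0.01) did not pass the test.

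Among genes of pyroptosis and the inflammasome 14 of 26 rose and 2 fell (median log2 fold change 0.20). GSDME, a gasdermin whose cleavage opens membrane pores, read 63.1, 66.2 and 61.4 CPM in EVER and 80.1, 82.97 and 80.7 CPM in COMB, a log2 fold change of 0.35 ± 0.05 (adjusted p = 9.7e-06). GSDMD, the gasdermin of inflammatory caspases, rose by 0.19 ± 0.05. The sensor NLRP1 read 9.84, 12.2 and 11.4 CPM and 23.7, 25.5 and 25.4 CPM, and NLRP3 4.35, 3.47 and 3.998 CPM and 7.11, 9.56 and 10.1 CPM. MLKL, the effector of necroptosis, rose 1.74-fold, and TXNIP, a thioredoxin-binding protein, fell with a log2 fold change of -0.38.

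The BCL2 family and death receptor genes split evenly, with 13 of 34 higher and 13 lower. TNFRSF10B, which encodes the TRAIL receptor DR5, read 107, 102 and 108 CPM in EVER and 173, 178 and 174 CPM in COMB, and PMAIP1, which encodes the BH3-only protein NOXA, 27.2, 26.1 and 24.7 CPM and 42.8, 45.3 and 43.9 CPM. BMF, another BH3-only gene, fell from 105, 112 and 101 CPM to 74.3, 65.3 and 68.03 CPM, and BCL2L11, which encodes BIM, fell by 0.59 on the log2 scale. The protective genes MCL1 and BCL2L1 rose by 0.37 and 0.23. Of p53 targets 10 of 30 rose and 10 fell, among the former CDKN1A (0.74 ± 0.07) and the nuclease AEN (0.64 ± 0.06). Without EVER replicate 2 the number of p53 targets that fell was 6.

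**Figure D3:**
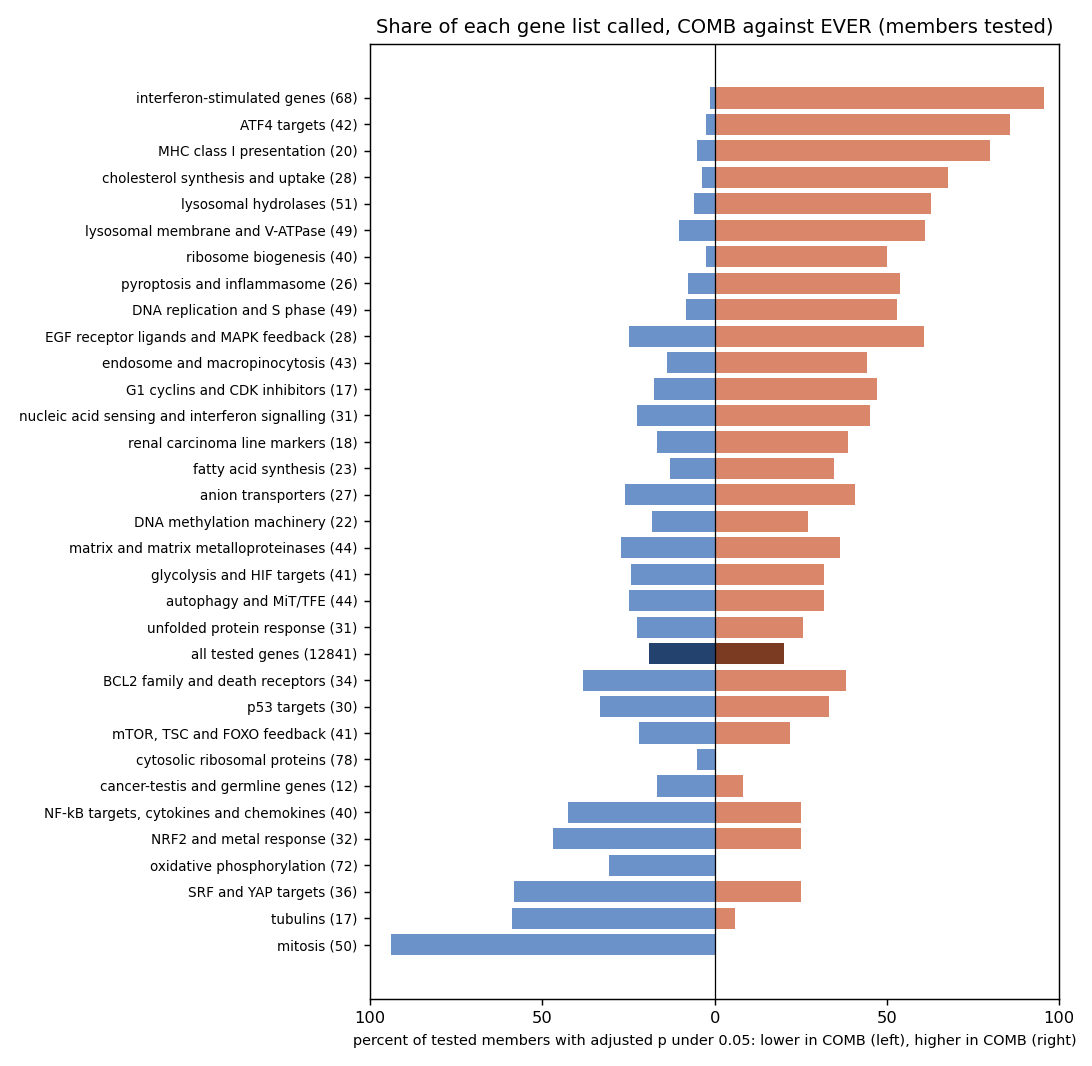
Percent of the tested members of each gene list with adjusted p below 0.05, lower in COMB to the left and higher in COMB to the right, for the lists with more than 3 tested members (numbers of members in parentheses). Dark bars are all 12841 tested genes (20.1% higher, 19.2% lower). Interferon-stimulated genes stand at the top with 65 of 68 higher and mitosis at the bottom with 47 of 50 lower.

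Targets of ATF4, the factor of the amino acid and integrated stress response, rose in 36 of 42 tested members, with 1 lower and a median log2 fold change of 0.43. The tryptophanyl-tRNA synthetase WARS1, which is also an interferon target, read 197, 193 and 199 CPM in EVER and 468, 513 and 500.0 CPM in COMB. TRIB3, a pseudokinase, read 58.99, 59.8 and 64.5 CPM and 140.1, 148 and 155 CPM, and STC2, a secreted glycoprotein, 95.96, 97.6 and 102 CPM and 189, 197 and 181 CPM. The groups did not overlap for these genes, nor for the alanyl-tRNA synthetase AARS1, which rose 1.7-fold. ATF4 itself rose by 0.34, the asparagine synthetase ASNS by 1.09 and DDIT3, which encodes CHOP, by 0.94, and ALDH18A1 of proline synthesis fell (-0.37).

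The other arm of this stress response was not raised as a whole: of 31 genes of the unfolded protein response 8 rose and 7 fell, with a median of 0.04. PPP1R15A, the phosphatase subunit that reverses eIF2α phosphorylation, read 43.7, 44.1 and 45.6 CPM in EVER and 89.5, 94.1 and 87.4 CPM in COMB. The chaperones HSP90B1 (-0.26 ± 0.04) and PDIA4 (-0.24 ± 0.03) and the factor CREB3L2 (-0.47 ± 0.04) fell, and HSPA5 (0.05) did not pass the test. Of NRF2 and metal response genes 8 of 32 rose and 15 fell. The haem oxygenase HMOX1 (0.76 ± 0.05), the ferritin genes FTH1 (0.48 ± 0.06) and FTL (0.42 ± 0.05) and the metallothionein MT1X (0.63 ± 0.08) rose, while the reductases AKR1B10 and AKR1C1 fell by 1.08 and 0.73.

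Cholesterol genes rose together by small amounts, 19 of 28 tested members with 1 lower and a median log2 fold change of 0.24. INSIG1, the sterol-regulated anchor of SCAP, read 51.1, 49.6 and 44.5 CPM in EVER and 78.9, 82.7 and 80.5 CPM in COMB. No library of one group overlapped the other, and the synthesis enzymes LSS (0.39 ± 0.04) and DHCR7 (0.35 ± 0.04) rose as well. MYLIP, a ubiquitin ligase of sterol uptake, was the member that fell (-0.32); without EVER replicate 1 or COMB replicate 2 no member did. Of fatty acid synthesis genes 8 of 23 rose and 3 fell, or 1 without EVER replicate 1 or COMB replicate 2. The desaturase SCD read 274, 273 and 264 CPM and 523, 536 and 549 CPM, and the fatty acid synthase FASN 344, 344 and 365 CPM and 511, 509 and 551 CPM.

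Genes of mitosis had the lowest median change of the 33 lists. Of 50 tested members 47 fell and none rose, with a median log2 fold change of -0.47, and the COMB libraries lay wholly below the EVER libraries for all 50. The summed level fell from 6843 to 7005 CPM in the EVER libraries to 4917 to 4941 CPM in the COMB libraries.

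KIF20A, a kinesin of cytokinesis, read 209, 208 and 212 CPM in EVER and 88.6, 85.4 and 86.3 CPM in COMB, a log2 fold change of -1.27 ± 0.04. NUSAP1, a spindle protein, read 161, 166 and 164 CPM and 101, 101 and 94.1 CPM. CDC20, the activator of the anaphase-promoting complex, read 297, 287 and 294 CPM and 191, 191 and 194 CPM, and ANLN, the actin-binding anillin, 321, 324 and 327 CPM and 216, 212 and 209.9 CPM. Every one of these values in COMB was below every value in EVER. BIRC5, which encodes survivin and is both a mitotic and an apoptosis gene, fell by 0.69 ± 0.04. The members that did not pass the test were KIFC1 (-0.09), PLK4 (-0.06) and BUB3 (-0.05).

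Genes of DNA replication and S phase went the other way, with 26 of 49 higher and 4 lower and a median of 0.16. DTL, a substrate receptor of the CUL4 ubiquitin ligase, read 47.3, 50.1 and 47.6 CPM in EVER and 64.4, 73.1 and 73.7 CPM in COMB. The licensing factors CDC6 and CDT1 read 36.2, 36.01 and 33.8 CPM and 37.8, 36.6 and 35.8 CPM in EVER and 46.9, 51.3 and 49.3 CPM and 50.4, 51.6 and 53.4 CPM in COMB, in that order. Among the 4 members that fell were TYMS (-0.47), TK1 (-0.35) and RRM2 (-0.21), which serve nucleotide supply. The MCM helicase genes MCM2, MCM3, MCM4, MCM5 and MCM7 rose by 0.20 to 0.27.

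In the list of G1 cyclins and CDK inhibitors 8 of 17 rose and 3 fell. CCND1, which encodes cyclin D1, read 249, 241 and 254 CPM in EVER and 642, 673 and 668 CPM in COMB, a log2 fold change of 1.42 ± 0.04. CDKN2C, an inhibitor of CDK4 and CDK6, fell from 70.99, 70.2 and 69.97 CPM to 35.3, 30.98 and 31.5 CPM. CDKN1B, which encodes p27, fell by 0.35. Tubulins, of which 10 of 17 fell and 1 rose, included TUBA1B, at 3487, 3474 and 3368 CPM and 2316, 2406 and 2455 CPM, TUBB4B (-0.51 ± 0.03), TUBA1C (-0.37 ± 0.03) and TUBB (-0.32 ± 0.03). Tubulin genes have near-identical copies, and how reads were assigned among them is not given in the sources used here.

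The pattern TTTGAA, the core of the cell cycle homology region (CHR), occurred in 8.32% of the 10378 promoters and in 24 of the 43 mitotic genes with an entry (55.8%), and CCAAT in 35.2% of all and 33 of the 43 (76.7%). Both counts include both strands, and neither pattern contains the other. The 3 mitotic genes with the smallest p whose matches fit into 120 bases are shown as above, at chr1:43358802-43358921 (+ strand) for CDC20, chr7:36389742-36389861 (+ strand) for ANLN and chr15:59105026-59105145 (+ strand) for CCNB2, which encodes cyclin B2 (log2 fold change -0.76). Reverse matches read TTCAAA.
CDC20: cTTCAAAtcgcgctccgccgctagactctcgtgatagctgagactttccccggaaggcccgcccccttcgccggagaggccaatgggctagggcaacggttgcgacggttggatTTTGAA
ANLN: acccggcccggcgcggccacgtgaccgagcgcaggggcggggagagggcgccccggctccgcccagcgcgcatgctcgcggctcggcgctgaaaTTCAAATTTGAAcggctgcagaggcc
CCNB2: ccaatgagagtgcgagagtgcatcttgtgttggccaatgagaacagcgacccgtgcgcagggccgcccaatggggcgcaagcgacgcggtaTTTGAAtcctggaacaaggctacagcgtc
In CCNB2 the match begins 29 bases before the start and in ANLN, which holds 2, the nearer one begins 20 bases before it.

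Ribosome biogenesis genes, which mTOR inhibition is known to lower, rose slightly when SGI-1027 was added: 20 of 40 rose and 1 fell (NPM1, -0.09), with a median log2 fold change of 0.13. No member fell when any of the 6 libraries other than EVER replicate 3 was left out. NOP56, a core protein of box C/D particles, read 159, 156 and 157 CPM in EVER and 208, 203 and 208 CPM in COMB. NOP14 read 38.7, 42.1 and 41.7 CPM and 54.5, 58.3 and 51.6 CPM, and RRS1 35.3, 33.1 and 36.3 CPM and 51.2, 48.98 and 43.6 CPM, both factors of ribosome assembly. Of cytosolic ribosomal protein genes, 4 of 78 were lower (RPS26, RPL24, RPS9 and RPS10, log2 fold changes -0.25, -0.13, -0.13 and -0.47) and none higher, with a median of -0.03. Without EVER replicate 1, COMB replicate 2 or COMB replicate 3 the number lower was 1 and without EVER replicate 3 it was 2, whereas it was 9 with upper-quartile normalization and 16, with 1 higher, when EVER and COMB were fitted alone. Of 72 genes of oxidative phosphorylation 22 fell and none rose (median -0.13), among them COX8A (-0.31 ± 0.04), UQCR10 (-0.33 ± 0.06), ATP5F1A (-0.26 ± 0.05) and ATP5PF (-0.26 ± 0.05). That count was 12 without COMB replicate 3, 14 without EVER replicate 1 and 45 when EVER and COMB were fitted alone.

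Genes downstream of growth factor signalling moved in both directions. Of 28 EGF receptor ligands and MAPK feedback genes 17 rose and 7 fell, 9 and 3 of them past the DEG cut-off, with a median of 0.45. Among the higher members, the ETS factor ETV5 read 20.2, 17.5 and 18.996 CPM in EVER and 58.4, 64.7 and 62.5 CPM in COMB, and the phosphatase DUSP5 30.2, 27.3 and 28.8 CPM and 53.9, 60.5 and 61.01 CPM. SPRY4, an inhibitor of the pathway, and DUSP4, singled out after their values were seen, rose 6.13-fold and 4.18-fold. The ligand genes HBEGF (0.66) and TGFA (0.36) and the AP-1 gene FOSL1 (1.22) rose too, while the ligand genes EREG and AREG, the immediate early genes EGR1 and FOS and the phosphatase DUSP8 (-0.50) fell. EREG read 152, 157 and 148 CPM and 61.6, 64.2 and 67.7 CPM, and EGR1 47.9, 43.3 and 43.8 CPM and 10.4, 10.4 and 9.52 CPM. AREG and FOS fell by 0.97 and 1.24 on the log2 scale.

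Targets of serum response factor and YAP were lower in 21 of 36 members and higher in 9, with a median of -0.17. The list joins both kinds of targets, which were not counted apart. EDN2, the gene with the lowest log2 fold change once genes averaging under 50 counts were set aside, read 9.92, 9.45 and 7.81 CPM in EVER and 0.938, 0.727 and 1.05 CPM in COMB, a log2 fold change of -3.32 ± 0.17 (adjusted p = 2.1e-11). ACTA2, smooth muscle actin, read 37.3, 38.9 and 38.02 CPM and 15.9, 11.8 and 11.8 CPM. ANKRD1, a classical YAP target, was among the 9 members that rose, from 5.92, 5.42 and 5.12 CPM to 38.8, 40.1 and 34.7 CPM. Of 44 genes of the matrix and its metalloproteinases 16 rose and 12 fell. LAMB3, a chain of laminin-332, rose 1.79-fold and the collagen chain COL6A3 1.39-fold, whereas COL8A1 (-0.80 ± 0.06) and THBS1, which encodes thrombospondin-1 (-0.46 ± 0.04), fell.

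Cytokine genes and NF-kB targets fell more often than they rose, in 17 against 10 of 40 members (median -0.14). The neutrophil chemokine CXCL5 read 499, 479 and 473 CPM in EVER and 207, 202 and 206 CPM in COMB, and the macrophage factor CSF1 298, 311 and 304 CPM and 179, 178 and 193 CPM. TNFAIP3, which encodes the feedback inhibitor A20, rose from 67.6, 68.2 and 70.4 CPM to 131, 137 and 139 CPM, and CSF2, which encodes GM-CSF, from 36.2, 36.1 and 36.8 CPM to 76.4, 73.04 and 68.3 CPM. Of 27 anion transporters 11 rose and 7 fell, among them the chloride-proton exchangers CLCN5 (0.91 ± 0.11) and CLCN7 (0.58 ± 0.06) and the cotransporter SLC12A7 (0.53 ± 0.06) upward and the bicarbonate transporter SLC4A4 (-0.63 ± 0.06) downward.

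The 786-O line lacks functional VHL and keeps HIF-2α active, and EPAS1, which encodes HIF-2α, read 155, 146 and 154 CPM in EVER and 279, 297 and 288 CPM in COMB. Of 41 glycolysis and HIF target genes 13 rose and 10 fell. ANGPTL4, an inhibitor of lipoprotein lipase, read 3.05, 3.32 and 2.51 CPM and 25.1, 26.5 and 28.2 CPM, NDRG1 257, 241 and 245 CPM and 629.8, 637 and 655 CPM, and VEGFA, the angiogenic factor, 315, 312 and 312 CPM and 560.4, 568 and 564 CPM. The neuronal enolase ENO2 rose 1.98-fold, while the glycolytic enzymes LDHA, PGK1 and ENO1 fell by 0.36, 0.35 and 0.24. Of the 18 tested renal carcinoma markers 7 rose and 3 fell. The membrane peptidases MME (1.15 ± 0.06) and ANPEP (0.45 ± 0.06) were among the former. The kidney cadherin CDH6 fell, from 423, 402 and 407 CPM to 207, 180.4 and 169 CPM.

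Further genes among the 12 lowest that average 50 counts or more belong to none of these groups. CYP1B1, an oestrogen- and xenobiotic-metabolising cytochrome, read 59.05, 52.5 and 55.1 CPM in EVER and 17.4, 16.2 and 11.6 CPM in COMB. SYTL2, an effector of RAB27, read 37.9, 39.2 and 35.7 CPM and 10.6, 10.2 and 9.17 CPM, and HHIP, an antagonist of Hedgehog ligands, 4.22, 4.71 and 4.05 CPM and 1.09, 0.652 and 0.71 CPM. KLHL14, FILIP1L, LRRC17, PXDNL, the growth factor gene TGFB3 and the hydrolase AOAH had log2 fold changes of -1.99, -1.79, -2.00, -1.68, -1.64 and -1.64. For SULT1A4 (-2.96 ± 0.56), as for CBSL on the higher side (3.96 ± 1.17), another locus of almost the same sequence can take part of the reads, so the values are uncertain. The value of CBSL rested on COMB replicate 3, at 11.6 CPM against 0.834 and 0.978 CPM, and without that library its log2 fold change was 1.66 and did not pass the test. Of the DEGs, 221 of the 313 higher and 167 of the 188 lower genes were in none of the lists.

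The effect of SGI-1027 could be set beside its effect without everolimus, since COMB against EVER and SGI against DMSO share no library. Over the 12841 genes, which are not independent replicates, the log2 fold changes of both comparisons had a Pearson correlation of 0.454 and a Spearman correlation of 0.369. SGI-1027 alone gave 803 higher and 138 lower DEGs. Of these, 186 of the higher (23.2%) and 41 of the lower (29.7%) were also DEGs in the same direction under everolimus, where they made up 59.4% of 313 and 21.8% of 188. The 803 genes had a median log2 fold change of 1.42 without everolimus and of 0.40 with it, and the 138 genes of -1.20 and -0.54. Since the genes were chosen on the former values, only the latter are free of that choice.

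**Figure D4:**
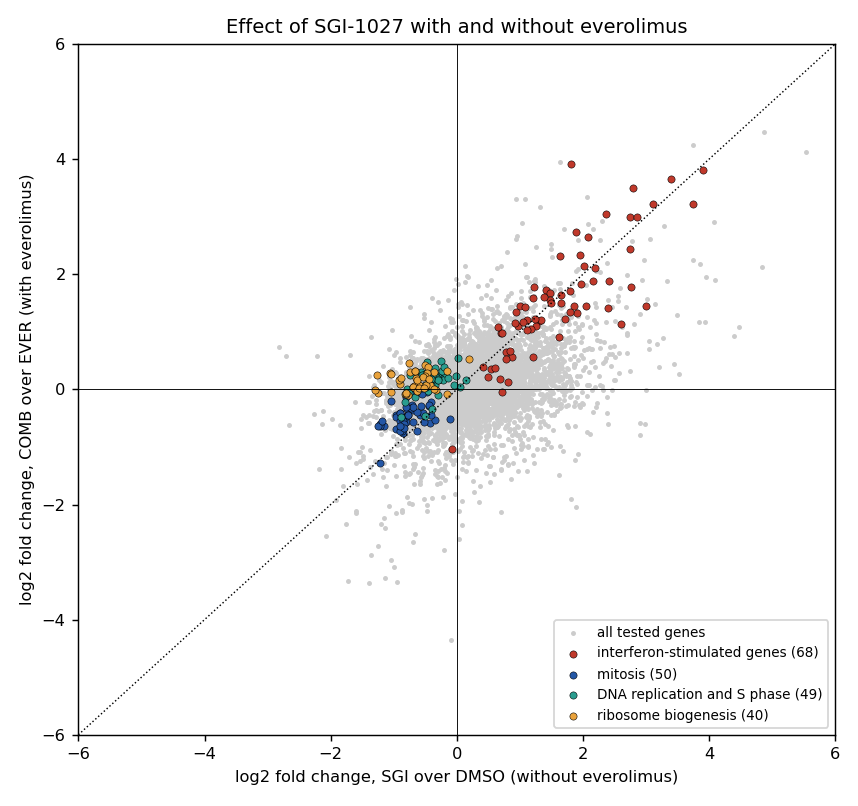
Log2 fold change of SGI-1027 without everolimus (SGI over DMSO, horizontal axis) against that with everolimus (COMB over EVER, vertical axis) for all tested genes (grey) and 4 lists. The dotted line marks equal effects. Interferon-stimulated genes lie near that line (medians 1.48 and 1.44), mitosis genes are below 0 on both axes, and genes of S phase and ribosome biogenesis are lower with SGI-1027 alone (medians -0.41 and -0.64) but at 0.16 and 0.13 under everolimus.

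Interferon-stimulated genes rose with SGI-1027 in both settings. The median log2 fold change was 1.48 without and 1.44 with everolimus, and 67 and 65 of 68 members rose. MX2 rose from 2.52, 4.06 and 3.4 CPM in DMSO to 46.2, 42.9 and 60.9 CPM in SGI, a log2 fold change of 3.90, against 3.80 under everolimus. The interaction contrast, which is the effect of SGI-1027 with everolimus minus its effect without, was -0.10 for MX2 (adjusted p = 0.72) and 0.37 for ISG15 (adjusted p = 0.0007). The interactions of OAS1, OAS2, IFI44L and IFITM1 did not pass the test with all libraries. Without SGI replicate 3, which stood apart, they passed, at 0.37, 0.38, 0.27 and 1.06 in that order. Of the 68 members 15 had an interaction above 0 and 19 below 0 at adjusted p below 0.05, against 3028 genes (23.6%) above and 2833 (22.1%) below among all genes. With upper-quartile instead of TMM normalization the latter counts were 2335 and 3578, so the split of interactions by sign depends on the scaling. STAT2 (-0.60) and DDX58 (-0.41) were among those below 0, and USP18 (0.69) among those above.

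The growth-related lists differed between both settings. With SGI-1027 alone 44 of 49 genes of DNA replication and S phase fell and none rose, against 4 and 26 under everolimus, and 44 had an interaction above 0 and none below. For ribosome biogenesis 39 of 40 fell with SGI-1027 alone, and 38 had an interaction above 0. Everolimus alone had given medians of -0.48 and -0.75 for these lists relative to DMSO. RRS1 read 68.8, 68.8 and 70.1 CPM in DMSO, 42.8, 43.3 and 36.6 CPM in SGI, 35.3, 33.1 and 36.3 CPM in EVER and 51.2, 48.98 and 43.6 CPM in COMB. For mitosis, which fell in both settings (medians -0.80 and -0.47), 34 of 50 members had an interaction above 0 and 2 below.

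Other lists were raised more under everolimus than without it. ATF4 targets had a median of 0.17 with SGI-1027 alone against 0.43 under everolimus, and 24 of 42 had an interaction above 0 and 6 below. Cholesterol genes had medians of -0.01 and 0.24, with 18 of 28 above and 2 below. The MAPK feedback list had medians of 0.19 and 0.45, with 12 of 28 above and 5 below. Lysosomal hydrolases, in contrast, had medians of 0.56 and 0.25, with 6 of 51 above and 24 below. Everolimus alone gave these hydrolases a median of 0.33 relative to DMSO. CTSD read 935, 894 and 918 CPM in DMSO, 1592, 1477 and 1512 CPM in EVER, 2122, 2144 and 2360.2 CPM in SGI and 2656, 2572 and 2738 CPM in COMB, where every library was above those of the other groups. Matrix genes had medians of 0.56 and 0.07, with 1 of 44 above and 31 below.

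**Figure D5:**
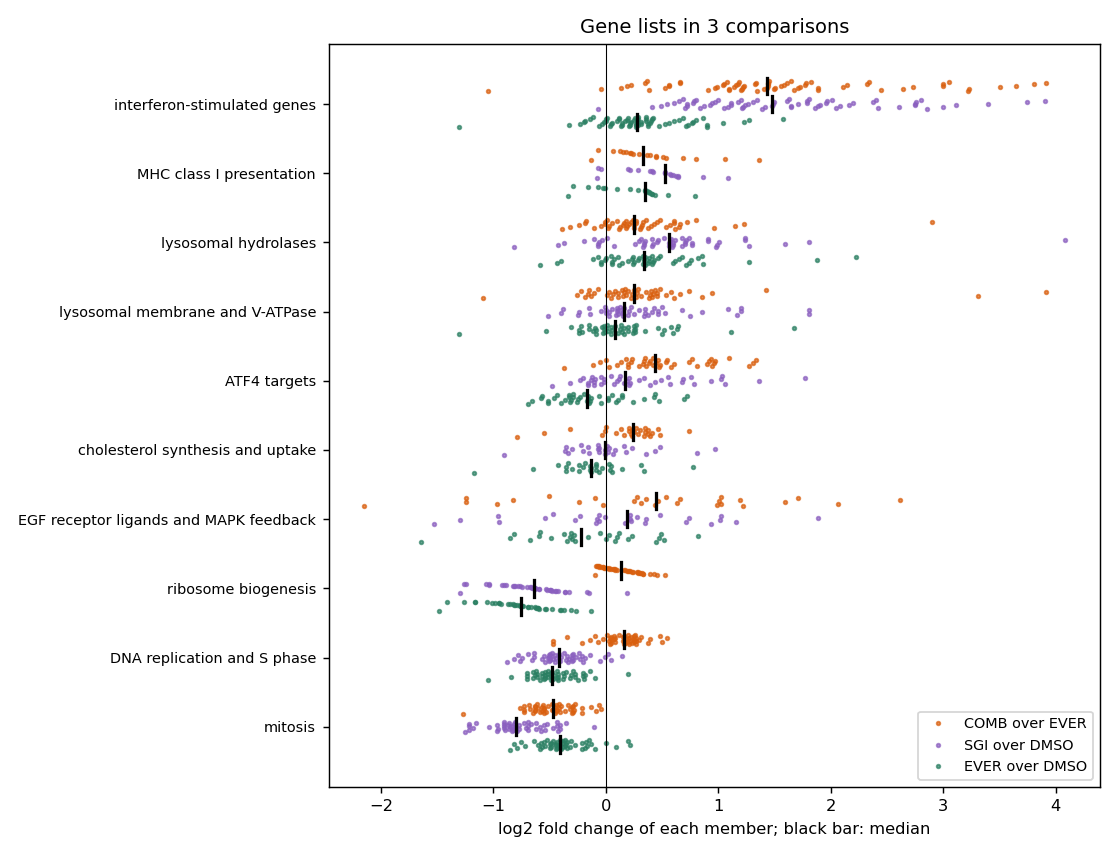
Log2 fold change of each tested member (points) of 10 lists and their medians (black bars) in 3 comparisons: COMB over EVER, SGI over DMSO and EVER over DMSO. The comparisons COMB over EVER and EVER over DMSO share the EVER libraries, and SGI over DMSO and EVER over DMSO share the DMSO libraries. The medians of ribosome biogenesis and S phase genes lie below 0 for either drug alone and slightly above 0 when SGI-1027 is added to everolimus.

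Of single genes named for the size of their interaction, APLN lay on the upper side. APLN is, the gene of the vasoactive peptide apelin, and read 12.9, 9.69 and 9.87 CPM in DMSO, 4.06, 4.31 and 4.28 CPM in SGI, 2.32, 2.25 and 2.82 CPM in EVER and 4.35, 5.17 and 4.36 CPM in COMB. SGI-1027 thus lowered APLN by itself (-1.36) and raised it under everolimus (0.91). ANGPTL4 rose with SGI-1027 in both settings but by more under everolimus, with 3.09, 2.38 and 2.98 CPM in DMSO and 6.83, 5.82 and 8.39 CPM in SGI. RTL9 and SH2D5 gave -0.02 and -0.30 without and 1.92 and 1.52 with everolimus. The apparent interaction of ASMTL-2 (3.30 ± 1.08, SE) is uncertain, as its groups overlapped and the call was lost without COMB replicate 3 (2.23) or DMSO replicate 2 (2.48).

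On the lower side were genes that rose with either drug alone. PIK3IP1, an inhibitor of PI3 kinase, read 2.01, 1.38 and 1.05 CPM in DMSO, 6.59, 6.45 and 5.77 CPM in EVER, 5.02, 3.49 and 4.001 CPM in SGI and 3.44, 2.83 and 3.13 CPM in COMB. YPEL1 read 0.671, 0.656 and 0.628 CPM in DMSO, 4.68, 5.4 and 5.36 CPM in EVER, 3.3, 3.55 and 3.54 CPM in SGI and 3.96, 3.06 and 3.15 CPM in COMB. For both genes the COMB libraries lay below the EVER libraries. The intestinal hormone receptor gene GLP2R (1.62 without and -1.48 with everolimus) and the epiplakin gene EPPK1 (1.87 and -1.22) turned from higher to lower in the same way, and BMF gave 1.75 and -0.61. U2AF1, whose value was -3.72, has a near-identical copy in the assembly, so that its counts are uncertain.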

How the data were processed

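RNA-seq of 12 libraries (4 groups of 3) was deposited by the authors as whole-number counts per gene and as FPKM for the same libraries. The study gives TRIzol and a TruSeq Stranded mRNA kit, whereas the labels give RNeasy and SMARTer. The submitters' processing notes name the mouse builds GRCm38 and mm10 although the symbols are human. The aligner, counter and strand setting are not given in the sources used here.

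Counts were analysed with edgeR 4.0.16 in R 4.3.3: filterByExpr kept 12841 of 17085 genes (351 had no count in any library), TMM normalization was used, and 1 quasi-likelihood fit over the 4 groups with a prior count of 0.125 gave COMB against EVER, SGI against DMSO and their difference. The deposited FPKM served in alternatives with limma 3.58.1 on log2(FPKM + 1) and log2(FPKM + 0.1). Upper-quartile normalization, DESeq2 1.42.0, leaving out the filter, at least 10 counts in every library, EVER and COMB alone, a replicate block and each library left out were tried as well. Counts were also simulated for 12704 genes, with 199 of them changed by 1.5 (log2) in COMB and all other levels taken from EVER. Of the 199 genes, 190 were recovered at adjusted p below 0.05, with 11 false calls. The DEG cut-off recovered 197, with 17 false calls. Recovery of smaller changes, such as the median of 0.31 among called genes, was not simulated.

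The members, the 33 gene lists and the tests were chosen with earlier results of these data known. Genes with library values were named by rule: the 12 highest and 12 lowest called genes that average 50 counts or more and whose groups do not overlap, the 4 members of each list with the smallest p, the drug targets and cell death genes of the study, the 5 highest and 5 lowest interactions, and the members of a count of 5 or fewer. Promoters were from RefSeq, GRCh38.p14, a build not stated for the counts. Some genes are not reported here.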

Additional observations from a re-analysis of the deposited data

Results flagged for a closer look

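For the genes named by size, as drug targets or by their interaction, the effect of SGI-1027 with everolimus differed from its effect without it at an adjusted p below 0.05 (edgeR) in 31 of 45, 12 above 0 and 19 below. Over all tested genes 23.6% were above 0 and 22.1% below. The genes named by their interaction were chosen among those that passed. Those named by size were chosen on COMB against EVER, which is a part of this difference. The count is therefore no test of these genes. On the log2 scale the differences above 0 were 3.30 for ASMTL-2, 2.27 for APLN, 1.94 for RTL9, 1.84 for ANGPTL4, 1.82 for SH2D5, 1.08 for ANKRD1, 0.84 for CMPK2, 0.68 for IFI27, 0.67 for UHRF1, 0.66 for DNMT1, 0.46 for RPTOR and 0.42 for DNMT3B. Those below 0 among the lowest interactions were -3.72 for U2AF1, -3.11 for GLP2R, -3.10 for EPPK1, -3.01 for YPEL1 and -2.50 for PIK3IP1. Among the genes lowest in COMB they were -2.06 for FILIP1L, -1.60 for EDN2, -1.54 for LRRC17, -1.49 for CYP1B1, -1.28 for KLHL14, -1.27 for HHIP, -1.19 for EGR1, -1.07 for TGFB3, -0.95 for AOAH and -0.56 for PXDNL. The rest were -1.18 for ACP5, -0.78 for DNMT3A, -0.45 for GSDMD and -0.19 for LAMP2. Of the 120 genes named from lists, which were likewise chosen on COMB against EVER, 57 had a difference above 0 and 27 below 0. Several of these calls are weak. That of IFI27 was lost in most alternatives, with 0.24 (adjusted p = 0.27) without DMSO replicate 2 and an adjusted p of 0.17 in DESeq2. That of ACP5 was lost with DESeq2 (adjusted p = 0.082), without a filter (0.079), with the block (0.057), on log2(FPKM + 0.1) (-0.14, adjusted p = 0.59) and without any single library other than COMB replicate 3. That of PXDNL was lost without a filter (adjusted p = 0.061), on both FPKM scales (-0.05 with adjusted p = 0.59 and -0.37 with adjusted p = 0.056) and without EVER replicate 1, COMB replicate 1, SGI replicate 2, SGI replicate 3 or any DMSO library. That of LAMP2 was lost without EVER replicate 1 (adjusted p = 0.055) or COMB replicate 2 (0.060), and that of CMPK2 without DMSO replicate 2 (0.62, adjusted p = 0.059). On log2(FPKM + 1) the calls of TGFB3 (-0.30) and AOAH (-0.09) were lost, and that of ASMTL-2 was lost on both FPKM scales and without COMB replicate 3 or DMSO replicate 2.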

How the results depend on the processing

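The number of higher DEGs was 313 and fell to 99 on log2(FPKM + 1). The number of lower DEGs was 188 and was 103 with at least 10 counts in every library, 21 on log2(FPKM + 1) and 74 on log2(FPKM + 0.1). A pseudocount shrinks the fold changes of low genes, and the stricter filter tests fewer genes. With each library left out in turn there were 314 to 349 higher and 175 to 205 lower DEGs. The interaction of ACP5 turned from -1.18 to 0.34 on log2(FPKM + 1), and the cause was not tested. Same-numbered EVER and COMB libraries did not deviate together (correlations 0.0072, -0.026 and 0.030). These correlations cannot show whether equal numbers mark a shared culture, which the records do not say. With a replicate block there were 310 higher and 186 lower DEGs. Among values of named genes under the alternatives 2268 kept their call, 33 lost it and 3 gained it. Interactions were less stable: 788 values kept their call, 46 lost it, 17 gained it and 1 turned in sign. Of the list medians under the alternatives 361 stayed within the SD between COMB replicates and 101 moved beyond it.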
